A study of Mus musculus with 6 samples.

Results

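Genes of the blood vessel wall were followed in bulk RNA of the subventricular zone (SVZ), a region of neural stem cells beside the lateral ventricles, in mice. They were 42 genes taken by name, of 18614 genes in the deposited table, and covered endothelial cells, pericytes, smooth muscle and the vascular endothelial growth factor (VEGF) system. The choice was by name, but was made with earlier results of these data known. It left out claudins, collagens and potassium channel and ABC transporter genes. All 42 passed the filter on low counts, as did 15126 genes in all. The study compared 3 libraries from Zhx2+/+ mice (WT 1 to 3) with 3 from Zhx2Δ/Δ mice (KO 1 to 3); Zhx2 encodes a zinc finger and homeobox transcriptional repressor. In the labels, KO 2 carries the genotype ZHX3 KO and KO 3 the genotype ZHX4 KO, whereas both titles name ZHX2. The sources used here give no age, sex, strain or kind of deletion. They also do not state whether each library is a different animal; p-values therefore reflect the spread between libraries, which may be technical.

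Library totals lay between 17037152 and 17685906 estimated counts. Zhx2 itself was at 38.2 to 40.5 CPM (counts scaled to a fixed library total, with TMM scaling between libraries) in WT and at 56.3 to 67.1 CPM in the libraries labelled KO. The targeted gene thus went against its label, and directions below compare libraries by label, KO against WT. Markers of the SVZ were present in each library, Dcx of neuroblasts at 30.4 to 47.2 CPM and Foxj1 of ependymal cells at 61.5 to 85.0 CPM in WT and 32.2 to 50.1 CPM with the KO label. The 20 choroid plexus markers took 2.47%, 1.82% and 0.563% of all counts in the WT libraries, in the order WT 1 to 3. In KO 1, KO 2 and KO 3 they took 0.0530%, 0.0645% and 0.0440%.

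Brain capillaries are tubes of endothelial cells sealed into the blood-brain barrier and wrapped by pericytes; arteries and arterioles carry a coat of contractile smooth muscle. VEGF ligands act on receptor tyrosine kinases of endothelial cells, angiopoietins act on the Tie2 receptor, and PDGF-B from endothelium recruits pericytes through PDGF receptor beta. Capillaries of the choroid plexus differ from those of the brain parenchyma: they are fenestrated and carry the diaphragm protein PLVAP. In bulk RNA, fewer cells of a type and less RNA per cell cannot be told apart.

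Most vascular genes had small differences between the groups. The larger ones were in a few endothelial genes, lower in the libraries labelled KO, and in smooth muscle genes, high in 1 library, KO 2. No member passed an adjusted p of 0.05 in edgeR's quasi-likelihood test, and neither did any gene in the table (0% of 15126; lowest adjusted p = 0.144, edgeR). At an unadjusted p under 0.05, 5 of 42 members were lower, where 6.39% of all genes tested were, and 1 was higher, where 2.68% were. Groups did not overlap in 4 members that were lower and 2 that were higher, against 8.74% and 8% of all genes tested. The median log2 fold change (KO-labelled minus WT) was 0.14 over the 42 members and 0.02 over all genes tested. A log2 fold change of less than 0.5 in either direction was found in 32 members. The share of all genes tested in that range was not counted, so the 32 are not set against the background. Without KO 2 the members' median was -0.02.

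**Figure D1:**
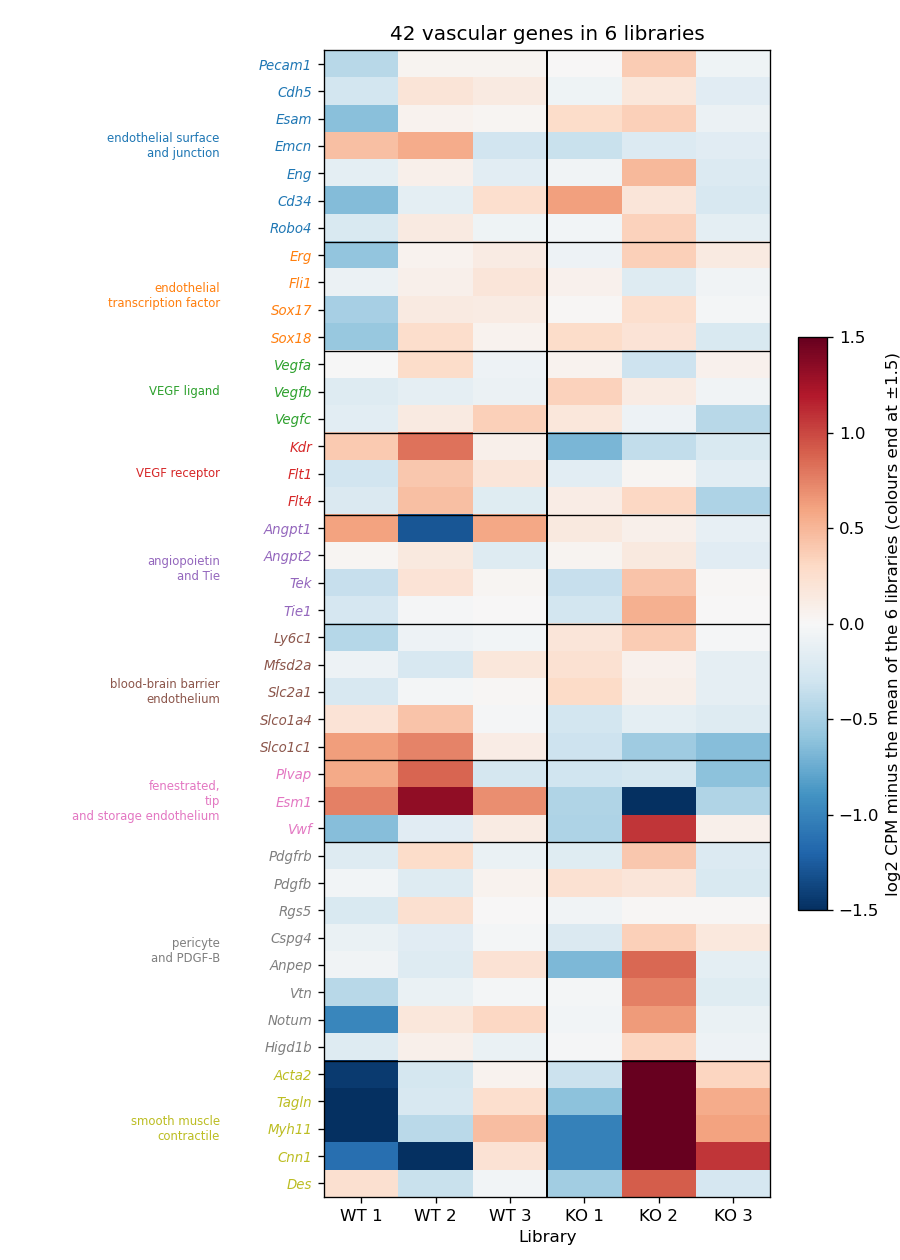
Levels of the 42 genes (rows, ordered and coloured by role) in the 6 libraries (columns), as log2 CPM minus the gene's mean over the libraries; red is above and blue below that mean, and colours end at ±1.5. The smooth muscle genes are reddest in KO 2, and Tagln, Myh11 and Cnn1 are also dark blue in a WT library. Slco1c1, Kdr and Esm1 are red in WT and blue in the KO-labelled libraries.

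**Figure D2:**
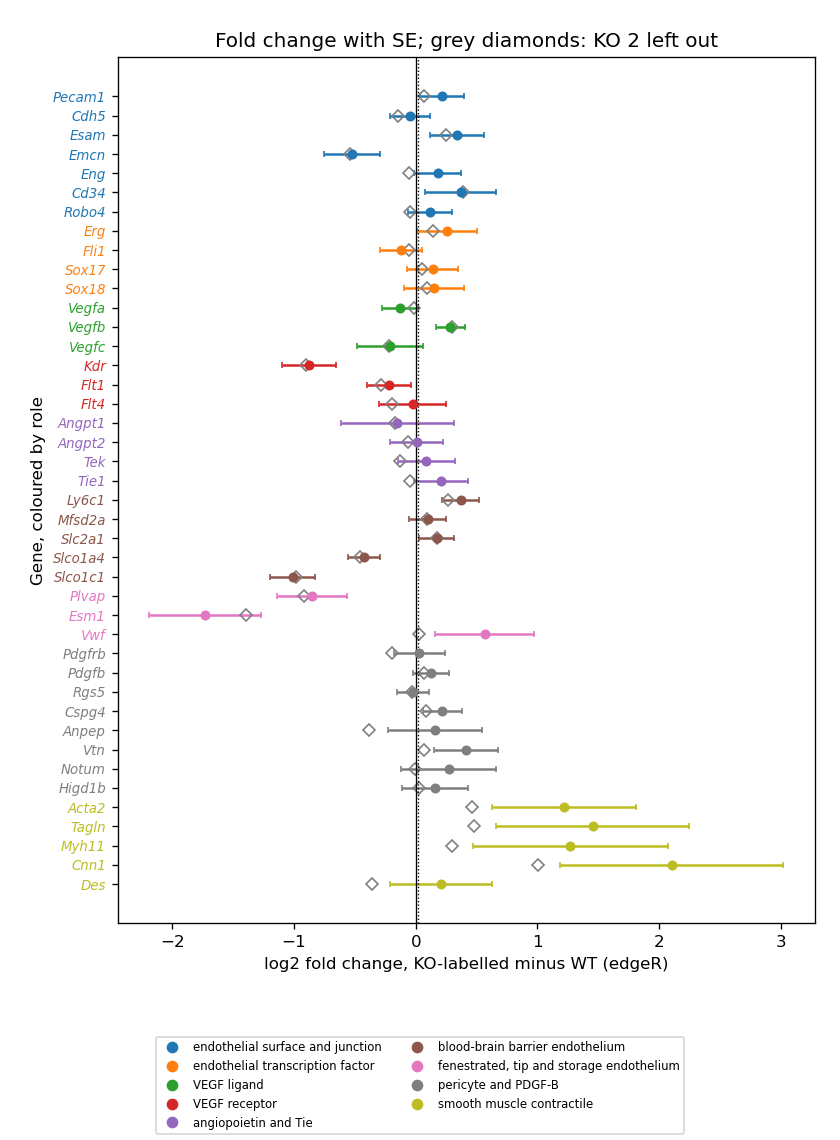
Fold change of each gene (rows, coloured by role) on the log2 scale from edgeR, with its standard error; grey diamonds give the value without KO 2, and the dotted line is the median of all genes tested (0.02). Slco1c1, Kdr, Slco1a4, Plvap and Esm1 lie to the left with and without KO 2, whereas Acta2, Tagln, Myh11 and Cnn1 move toward 0 when KO 2 is left out.

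The stretches of DNA just upstream of 3 of these genes are shown because results below turn on the first 2, the members with the lowest log2 fold changes, and the third, Eng, is a pan-endothelial gene for comparison. They are the 250 bases before the annotated start in RefSeq (GRCm38.p6, plus strand in all 3, 5′ to 3′): chr6:141524104-141524353 for Slco1c1, chr13:113209409-113209658 for Esm1 and chr2:32646345-32646594 for Eng. Capitals mark the exact string GGAAGT, a longer form of the ETS core GGAA, which on these strands reads in reverse complement. ETS factors, among them the members ERG and FLI1, are known regulators of endothelial genes.
Slco1c1: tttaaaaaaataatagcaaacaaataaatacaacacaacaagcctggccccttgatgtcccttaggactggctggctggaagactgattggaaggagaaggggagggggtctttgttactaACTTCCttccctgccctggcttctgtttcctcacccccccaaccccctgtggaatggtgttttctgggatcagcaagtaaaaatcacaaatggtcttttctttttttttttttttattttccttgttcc
Esm1: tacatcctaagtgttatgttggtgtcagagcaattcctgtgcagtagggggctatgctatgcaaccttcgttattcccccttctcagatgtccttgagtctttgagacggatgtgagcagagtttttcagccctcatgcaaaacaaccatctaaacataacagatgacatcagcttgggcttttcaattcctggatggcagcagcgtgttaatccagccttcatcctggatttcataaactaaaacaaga
Eng: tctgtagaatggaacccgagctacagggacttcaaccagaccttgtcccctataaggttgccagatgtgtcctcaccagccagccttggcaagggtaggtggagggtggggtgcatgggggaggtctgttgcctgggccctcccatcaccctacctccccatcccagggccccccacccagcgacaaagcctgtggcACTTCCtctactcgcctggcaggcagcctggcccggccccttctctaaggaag
The match begins 129 bases before the start in Slco1c1 and 53 bases before it in Eng, and this exact string is not in the Esm1 window. Shorter and other forms of the motif were not searched or marked, so the Esm1 window is not shown to lack an ETS site. RefSeq promoters of 300 bases were matched for 26 of the 42 members, with 30 promoters between them. GGAAGT was found on either strand in 26.7% of these 30 and in 23.8% of all 32851 promoters, so the members were close to the background. The CArG box is the known binding motif of serum response factor in smooth muscle genes. It was searched only in its exact form, CCWWWWWWGG with W for A or T. This form was in 0 of the 30 and in 1.63% of all promoters. Boxes that depart from it were not searched, so the 0 does not show that these promoters lack one. The 30 include promoters of Acta2, Cnn1 and Des but none of Tagln or Myh11, and at so low a share they are too few to set the members against the background.

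Levels can be set side by side between genes only per length, from the deposited FPKM summed over each gene's transcripts (mean of the 6 libraries). Slc2a1, the glucose transporter GLUT1 of barrier endothelium, was at 72.0 FPKM, Vegfb at 63.8 and Ly6c1 at 55.0. Vtn, the pericyte gene for vitronectin, was at 43.5 FPKM and Slco1c1 at 33.6. In all, 7 members were above 20 FPKM. At the other end, Des was at 0.968 FPKM, Angpt2 at 0.835 and Esm1 at 0.387. The defining endothelial genes were present in every library, Pecam1 at 6.68 to 11.3 FPKM and Cdh5 at 4.63 to 6.03 FPKM. Of the pericyte genes, Rgs5 was at 21.5 to 27.6 and Pdgfrb at 5.30 to 8.12 FPKM, and the smooth muscle gene Acta2 was at 4.03 to 34.4 FPKM. RNA of these endothelial, pericyte and smooth muscle genes was therefore found in each library, with smooth muscle genes the most variable part. Bulk levels do not show which cells made the RNA of a member.

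Among the VEGF ligands, Vegfb stood slightly above WT in the libraries labelled KO, and the other 2 overlapped. Vegfb, a ligand of VEGF receptor 1, measured 67.9, 70.7 and 72.9 CPM in the WT libraries (1 to 3, the order used throughout) and 98.1, 84.3 and 74.9 CPM in the KO-labelled ones. The groups did not overlap, although KO 3 lay close to WT 3. The log2 fold change was 0.28 (SE 0.12) and did not pass in edgeR (adjusted p = 0.553). Its counts are split over 2 RefSeq transcripts. The one with more counts had 749, 670 and 686 estimated counts in WT, against 1140, 957 and 776 with the KO label. The other had 506, 508 and 570 in WT, against 526, 507 and 500.4 with the KO label, so the higher level lay in the estimate for 1 transcript. Such splits between overlapping transcripts are estimates. Vegfa, the main angiogenic and hypoxia-induced ligand, was at 80.3, 97.8 and 76.5 CPM in WT and 83.4, 64.9 and 84.4 CPM in KO-labelled libraries. KO 2 held the lowest Vegfa level and WT 2 the highest (log2 fold change -0.13, SE 0.15). Vegfc, the lymphatic growth factor, was low throughout, at 2.11, 2.58 and 3.02 CPM in WT and 2.65, 2.25 and 1.76 CPM in KO-labelled libraries, with overlapping groups (-0.21, SE 0.27).

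Of the VEGF receptors, Kdr was lower in every library labelled KO. Kdr encodes VEGF receptor 2, the main signalling receptor of VEGF-A. Its level was 18.6, 25.0 and 14.97 CPM in WT, against 8.84, 10.9 and 12.1 CPM in KO 1, KO 2 and KO 3. The groups did not overlap, and WT 3 was the lowest WT library. WT averaged 19.5 ± 5.06 CPM, and the KO-labelled libraries averaged 10.6 ± 1.65 CPM (SD, n = 3), 1.84-fold lower on the fitted scale. With a log2 fold change of -0.88 (SE 0.22), Kdr missed the threshold in edgeR (adjusted p = 0.289), while DESeq2 called it (adjusted p = 0.0364). DESeq2 called 2 of the 42 members, Kdr and Slco1c1, both lower, where it called 2.02% of all genes tested lower. Over the 13 alternatives the adjusted p of Kdr ran from 0.0364 to 0.827. Flt1, VEGF receptor 1, which also serves as a decoy, was at 44.0, 70.8 and 60.8 CPM in WT and 48.1, 54.6 and 48.1 CPM in KO-labelled libraries. These ranges overlapped, since WT 1 was the lowest library (-0.22, SE 0.18). Flt4, VEGF receptor 3, was at 6.06, 9.60 and 6.21 CPM in WT and 7.60, 8.75 and 5.11 CPM in KO-labelled libraries (-0.03, SE 0.28), again with overlap.

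The angiopoietin and Tie genes showed no separation of the groups. Tie1, an orphan receptor that modulates Tie2, was at 11.3, 13.3 and 13.5 CPM in WT and 11.1, 19.4 and 13.6 CPM in KO-labelled libraries. Tek, which encodes Tie2, was at 10.4, 15.4 and 13.6 CPM and at 10.49, 17.9 and 13.4 CPM. KO 2 was the highest library for both receptors, and their log2 fold changes were 0.21 (SE 0.22) and 0.09 (SE 0.24). Angpt1, the activating ligand of Tie2, was at 8.23, 2.22 and 8.06 CPM in WT and 6.01, 5.70 and 4.99 CPM in KO-labelled libraries. Here WT 2 alone was low and the fold change was uncertain (-0.15, SE 0.46). Angpt2, the context-dependent antagonist, lay between 2.61 and 3.30 CPM in all 6 libraries (0.01, SE 0.22).

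The 4 endothelial transcription factor genes were near the WT level. Erg, an ETS factor of endothelial identity, was at 3.57, 5.58 and 5.86 CPM in WT and 5.13, 6.91 and 5.93 CPM in KO-labelled libraries. Fli1, its close relative, was at 5.36, 6.002 and 6.44 CPM and at 5.95, 4.95 and 5.46 CPM. Sox17, an arterial factor, was at 5.58, 8.58 and 8.53 CPM in WT and 7.95, 9.33 and 7.69 CPM in KO-labelled libraries. The groups overlapped for all of these, and WT 1 was the lowest library for Erg and Sox17. Log2 fold changes were 0.26 (SE 0.25) for Erg, -0.12 (SE 0.17) for Fli1, 0.14 (SE 0.21) for Sox17 and 0.15 (SE 0.25) for Sox18, and none passed in edgeR (adjusted p between 0.782 and 0.884).

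Genes of the endothelial surface and junctions did not pass either, and Emcn had the lowest log2 fold change of the 7. Emcn, which encodes the venous and capillary sialoglycoprotein endomucin, was at 15.8, 16.99 and 9.46 CPM in WT and 9.13, 9.96 and 10.2 CPM in KO-labelled libraries. WT 3 lay among the KO-labelled libraries, and WT 1 and WT 2 above them. The log2 fold change was -0.53 (SE 0.23; adjusted p = 0.562, edgeR). The junction gene Esam was at 9.42, 15.1 and 14.9 CPM in WT and 17.6, 18.6 and 13.7 CPM in KO-labelled libraries. Cd34, a sialomucin of endothelium and progenitor cells, was at 16.7, 23.6 and 31.2 CPM and at 40.1, 29.9 and 22.3 CPM. Both overlapped between the groups, and WT 1 was the lowest library in each (0.34, SE 0.22, and 0.37, SE 0.29). The remaining 4 had smaller log2 fold changes: 0.22 for Pecam1 (platelet endothelial adhesion molecule CD31), 0.18 for Eng (endoglin, a TGF-beta co-receptor), 0.12 for the guidance receptor gene Robo4 and -0.05 for Cdh5 (VE-cadherin). Without KO 2 these 4 were at 0.07, -0.05, -0.04 and -0.15.

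Barrier transporter genes parted: both organic anion transporters were lower in the KO-labelled libraries and the others were not. Slco1c1, which encodes the thyroxine transporter OATP1C1 of brain endothelium and choroid plexus, reached 130.3, 142 and 91.5 CPM in WT, against 68.2, 58.1 and 54.0 CPM in KO 1, KO 2 and KO 3. Every KO-labelled library lay below every WT library. WT averaged 121 ± 26.3 CPM, and the KO-labelled libraries averaged 60.1 ± 7.31 CPM (SD, n = 3), a fitted level of 49.6% of WT. It had the lowest p of the 42 members. With a log2 fold change of -1.01 (SE 0.19), Slco1c1 missed the threshold in edgeR (adjusted p = 0.178), whereas DESeq2 called it (adjusted p = 0.000321). Without WT 3, edgeR called it too (adjusted p = 0.0330), the 1 member among the 0.895% of genes called in that fit. Over the alternatives the adjusted p ran from 0.000321 to 0.827. Of the 3 RefSeq transcripts of Slco1c1, one annotated as non-coding took 75.0% of its counts, with 1804, 1754 and 1174 in WT against 834, 779.6 and 728 with the KO label, and was lower alongside the gene total. Slco1a4, the transporter OATP1A4, was at 46.4, 54.4 and 39.9 CPM in WT and 33.2, 36.5 and 35.2 CPM in KO-labelled libraries. The groups did not overlap (-0.42, SE 0.13; adjusted p = 0.415, edgeR). Ly6c1, a surface antigen of brain endothelium, was the 1 member higher at an unadjusted p under 0.05 (adjusted p = 0.540, edgeR). It stood at 33.0, 41.9 and 43.0 CPM in WT and 50.5, 57.8 and 43.9 CPM in KO-labelled libraries (0.37, SE 0.15). KO 3 was barely above WT 3, and this count of 1 was 0 without WT 1, WT 2 or KO 2. In those fits 1.55%, 4.33% and 0.87% of all genes tested were higher. Ly6c1 has a near-identical neighbour, Ly6c2, so its counts are uncertain. Slc2a1 and Mfsd2a, the lipid transporter that restrains transcytosis, had log2 fold changes of 0.17 (SE 0.14) and 0.10 (SE 0.15).

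Among genes of fenestrated, tip and storage endothelium, Plvap and Esm1 were lower in the libraries labelled KO, and Vwf was high in KO 2. Plvap was at 22.5, 27.7 and 12.6 CPM in WT, against 12.3, 12.7 and 9.86 CPM in KO 1, KO 2 and KO 3. WT 3 lay just below KO 2, so the groups overlapped, and WT 1 and WT 2 stood apart (-0.85, SE 0.29; adjusted p = 0.462, edgeR). Esm1, the tip cell proteoglycan gene for endocan, had 20, 27 and 18 counts in WT and 8, 3 and 8 counts in KO-labelled libraries. With so few counts the fold is imprecise; its log2 fold change was -1.73 (SE 0.46; adjusted p = 0.321, edgeR) and lay between -1.94 and -1.39 with single libraries left out. Vwf, von Willebrand factor of larger vessels, was at 15.7, 21.6 and 26.5 CPM in WT and 17.67, 51.1 and 25.7 CPM in KO-labelled libraries. KO 2 was 1.93 times the next library, and the log2 fold change of 0.57 (SE 0.41) was 0.03 without KO 2.

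For all 5 lower members (Slco1c1, Kdr, Slco1a4, Plvap and Esm1), WT 3 was the lowest WT library. WT 3 was also the WT library with the least choroid plexus RNA. The order of the other WT libraries differed. All 5 genes were highest in WT 2, the highest library for 21.9% of all genes tested. The choroid plexus markers, by contrast, took most counts in WT 1 (2.47%, against 1.82% in WT 2). For Esm1, WT 3 was near WT 1, at 18 against 20 counts. How often WT 3 was the lowest WT library among all genes tested was not counted. All 20 choroid plexus markers were lower in the KO-labelled libraries; their summed level ranged from 5612 to 23628 CPM over WT and from 441.5 to 643 CPM over the KO-labelled libraries, with Tmem72 at 0 counts in KO 1. The ependymal marker Foxj1 was also lower, with no overlap of the groups (-0.82, SE 0.20; adjusted p = 0.287, edgeR). It was the only 1 of 12 SVZ markers read whose groups did not overlap. Over all genes tested, 8.74% were lower without overlap. Of these 12 markers, 7 had a log2 fold change below 0 and 5 above it. The part of choroid plexus or ependymal RNA in the lower level of Slco1c1, Kdr, Slco1a4, Plvap and Esm1 was not tested. Without KO 2 the same rule also gave 5 members lower, where 5.21% of all genes tested were.

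**Figure D3:**
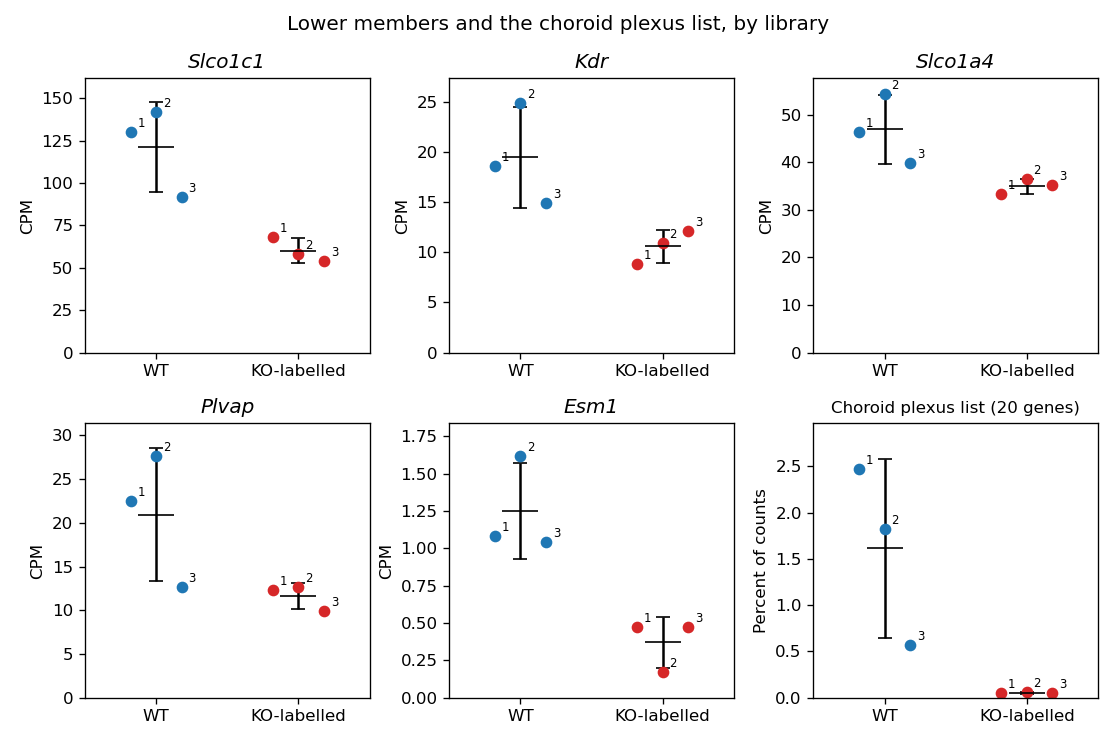
Levels in CPM of the 5 members that were lower at an unadjusted p under 0.05, and the percent of counts taken by the 20 choroid plexus markers; points are libraries with their replicate number, black lines the mean and SD of 3. WT 3 is the lowest WT point in each panel, the choroid plexus panel included. The highest point is WT 2 for the 5 genes and WT 1 for the choroid plexus markers.

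No pericyte gene passed the test, and KO 2 was the highest library for 6 of the 8, where it was for 19.5% of all genes tested. Vtn was at 54.7, 68.4 and 71.4 CPM in WT and 71.4, 123 and 64.6 CPM in KO-labelled libraries. Cspg4, the proteoglycan NG2 of pericytes and oligodendrocyte precursors, was at 26.0, 24.9 and 27.4 CPM and at 24.0, 35.9 and 31.2 CPM. Pdgfb, the endothelial ligand that recruits pericytes, was at 40.6, 36.7 and 43.5 CPM in WT and 48.8, 47.3 and 35.5 CPM in KO-labelled libraries. The groups overlapped in each case, and Vtn stood out in KO 2 alone, at 1.72 times the next library. Log2 fold changes were 0.41 (SE 0.26) for Vtn, 0.22 (SE 0.16) for Cspg4 and 0.12 (SE 0.15) for Pdgfb; without KO 2 they were 0.07, 0.08 and 0.07. The receptor gene Pdgfrb (0.03), the G protein regulator gene Rgs5 (-0.02), Higd1b (0.16), the Wnt deacylase gene Notum (0.27) and the aminopeptidase gene Anpep (0.16) had log2 fold changes below that of Vtn. Without KO 2 these 5 were at -0.20, -0.033, 0.025, -0.0027 and -0.38. Anpep was at 13.6 CPM in KO 2, 1.56 times the next library, and its sign turned without KO 2. Rgs5, by contrast with Vtn, was at 99.6 CPM in KO 2, inside the WT range of 84.3 to 116 CPM.

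Of the 5 smooth muscle genes, 4 held the largest log2 fold changes of the 42 in the positive direction, and these were smaller without KO 2. Cnn1, which encodes calponin, had 8, 5 and 19 counts in WT, against 8, 95 and 34 counts in KO 1, KO 2 and KO 3. Acta2, smooth muscle alpha-actin, was at 8.71, 19.7 and 24.5 CPM in WT and 18.9, 74.5 and 29.5 CPM in KO-labelled libraries. Tagln, the actin-binding protein transgelin, was at 2.54, 8.70 and 12.2 CPM and at 6.72, 42.4 and 15.03 CPM. In all 3 genes KO 2 was far above the rest and KO 1 lay within the WT range. Myh11, the smooth muscle myosin heavy chain, followed the same order, with 40.2 CPM in KO 2 and 15.6 CPM in the next library. KO 2 exceeded the highest other library 2.74-fold for Cnn1, 2.52-fold for Acta2, 2.82-fold for Tagln and 2.57-fold for Myh11. These were the 4 members of 42 in which it did so by more than 2-fold. How many of all genes tested did so was not counted, so this excess is not shown to be particular to smooth muscle genes. Over all genes tested, KO 2 was the highest library for 19.5%. Des, the intermediate filament desmin, was also highest in KO 2, at 5.24 CPM against 1.94 to 3.30 CPM elsewhere.

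In edgeR the log2 fold changes were 2.10 (SE 0.92) for Cnn1, 1.22 (SE 0.59) for Acta2, 1.45 (SE 0.79) for Tagln, 1.27 (SE 0.80) for Myh11 and 0.21 (SE 0.42) for Des. None passed (adjusted p between 0.568 and 0.906). The groups overlapped in each. Without KO 2 they were 1.01, 0.46, 0.48, 0.30 and -0.36, and the median of the 5 was 0.46 in place of 1.27. Within WT the spread was wide too: the summed level of the 5 genes was 18.3, 38.7 and 54.7 CPM in WT, against 33.1, 168 and 64.5 CPM in KO 1, KO 2 and KO 3. KO 2 is the library whose genotype tag reads ZHX3 KO. Any link between that tag and the smooth muscle values was not tested.

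Markers of vessel-associated fibroblasts and meninges also differed between libraries. The 10 genes of that list split: KO 2 was the highest library for 4 (Slc6a13, Aldh1a2, Crabp2 and Islr), WT 1 for 5 (Dcn, Lum, Ogn, Igf2 and Igfbp2) and WT 3 for 1 (Slc47a1). Over all genes tested, KO 2 was the highest library for 19.5%, WT 1 for 20.4% and WT 3 for 8.3%. The median log2 fold change of the 10 was -0.37. At an unadjusted p under 0.05, 2 were lower and 1 higher, where 6.39% and 2.68% of all genes tested were. Slc6a13 was at 24.2 CPM in KO 2 against 3.84 to 12.7 CPM in the other 5, and Aldh1a2 at 19.01 against 3.30 to 11.1 CPM; these 2 were picked after their values were seen. Igfbp2 (-1.97, SE 0.58) and Crabp2 (1.12, SE 0.39) had the smallest p, and neither passed in edgeR (adjusted p = 0.391 and 0.478). The summed level of the list was 1226, 896 and 446 CPM in WT and 207, 564 and 247 CPM in KO-labelled libraries, with no member at 0. Most of that sum was Igf2 and Igfbp2, at 834 and 288 CPM in WT 1. The part of attached larger vessels or meninges in the smooth muscle values was not tested.

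**Figure D4:**
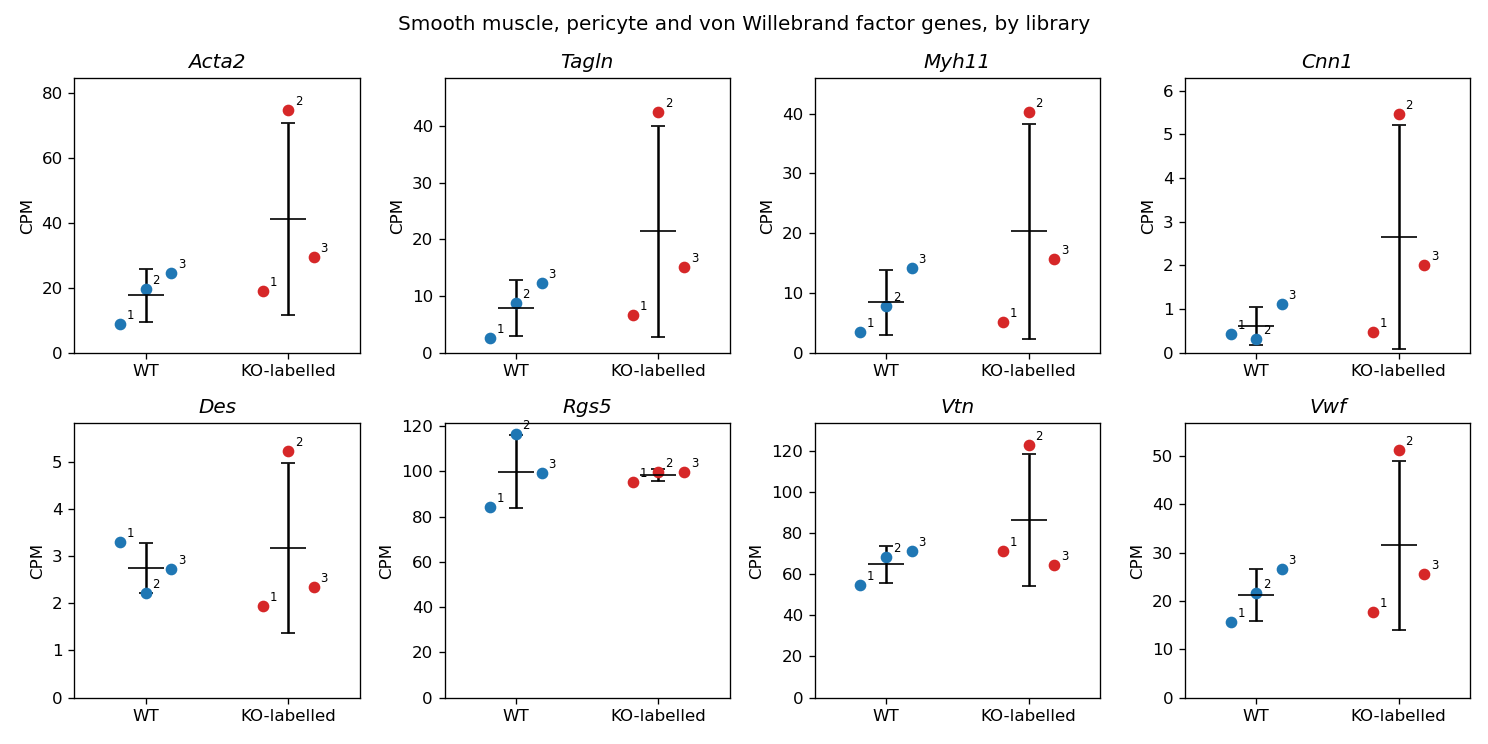
Levels in CPM of the 5 smooth muscle genes, 2 pericyte genes (Rgs5 and Vtn) and Vwf by library, with replicate numbers; black lines are the mean and SD of 3, and each axis starts at 0. KO 2 is the top point in every panel except Rgs5, where the highest library is WT 2 at 116 CPM.

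Across the 42 members, KO 2 was the highest library for 21 and WT 1 the lowest for 21. Over all genes tested these shares were 19.5% and 24.8%, against 50.0% for the members in both cases. KO 3 was the highest library for 0 members, where it was for 12.2% of all genes tested. WT 1 was lowest for 5 of the 7 endothelial surface genes, 3 of the 4 transcription factor genes and 3 of the 5 smooth muscle genes. It was also the WT library with the most choroid plexus RNA. Any part of choroid plexus RNA in the low member levels of WT 1 was not tested. Without WT 1 the members' median log2 fold change was 0.07.

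Other genes of these pathways were read from lists. Of 17 tested partners of VEGF, angiopoietin and endothelial signalling, 2 were lower and 1 higher at an unadjusted p under 0.05. Over all genes tested, 6.39% were lower and 2.68% higher by this rule. The median log2 fold change of the partners was -0.05. Tgfbr2, a TGF-beta receptor, averaged 36.9 ± 6.90 CPM over WT and 24.5 ± 2.22 CPM over the KO-labelled libraries (SD, n = 3; log2 fold change -0.59, SE 0.16). Apln, the peptide ligand apelin of tip cells and some neurons, was at 33.7 ± 2.46 and 41.97 ± 2.47 CPM (0.32, SE 0.10). Neither passed in edgeR (adjusted p = 0.339 and 0.429), and neither gene's groups overlapped. Aplnr was too low to test. Of 21 further endothelial markers, 2 were lower and 1 higher by the same rule, beside the same shares of all genes tested. Their median was 0.26, or 0.07 without KO 2. The 2 with the smallest p were Cyyr1 (-0.49, SE 0.15) and Ctla2a (0.38, SE 0.12), with adjusted p = 0.409 and 0.427 in edgeR.

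Of 15 tested further mural markers, 2 were lower at an unadjusted p under 0.05 and none was higher, where 6.39% and 2.68% of all genes tested were. Their median log2 fold change was 0.23, or -0.01 without KO 2. Itga1, an integrin subunit, had -0.52 (SE 0.18) and Cald1, the actin-binding protein caldesmon, -0.38 (SE 0.15); neither passed in edgeR (adjusted p = 0.477 and 0.533). KO 2 was the highest library for 11 of the 15, and for 19.5% of all genes tested. Blood genes, which travel with vessels, had a summed level of 256, 170.5 and 307 CPM in WT and 389, 318 and 278 CPM in KO-labelled libraries, so KO 1 held the most and WT 2 the least. The 2 blood genes with the smallest p were Hba-a2 (0.51, SE 0.23) and Hbb-bs (0.44, SE 0.25).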

How the data were processed

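Per the labels, total RNA of the SVZ was sequenced in 6 libraries, and groups and replicate numbers come from the titles. The authors deposited estimated counts for 61481 RefSeq transcripts and, per the file headers and values, FPKM scaled to transcript length and library total. The submitters' processing notes name the build mm10 and limma 3.40.6; an aligner or counter is not given in the sources used here. For each NCBI gene number, its transcripts' estimated counts were added up (18614 genes, 18489 with a RefSeq symbol of GRCm38.p6) and rounded. Tests used edgeR 4.0.16, run in R 4.3.3 (TMM, filterByExpr with a minimum count of 10, robust quasi-likelihood F test, two-sided, group as the only term), adjusted by Benjamini-Hochberg over 15126 genes; the threshold was 0.05. CPM are TMM-scaled. A count of 3, the floor, is 0.17 to 0.176 CPM, for counting error only. SE is derived from the fold change and F. FPKM served only to set levels of genes side by side. Alternatives were DESeq2 1.42.0, limma-voom (limma 3.58.1), DESeq2 size factors, other filters, a replicate block, single libraries left out and KO 1 alone against WT. The procedure was also run on simulated counts, with no outcome given here. These were drawn independently for each gene and library. They hold no library that deviates as a whole, so they do not bear on values that rest on 1 library. Replicates differed beyond sampling noise (chi-square per degree of freedom 22.6 to 99.6). Members and gene lists were chosen with earlier results of these data known. By rule, up to 3 members per role with the smallest p get values in each library, and up to 2 genes per further list are named, here for the vascular, fibroblast and blood lists. Named outside that rule are Dcx, Foxj1 and Tmem72 as markers, and the other fibroblast genes.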

Additional observations from a re-analysis of the deposited data

How the results depend on the processing

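The count of members past the threshold was 0 in edgeR and in 11 of 13 alternatives; it was 2 with DESeq2 (Kdr and Slco1c1) and between 0 and 1 with single libraries left out (Slco1c1 without WT 3). Over all genes it was 311 with DESeq2 and between 0 and 137 with single libraries left out, the highest without WT 3. Members lower at an unadjusted p under 0.05 numbered 5, between 4 and 6 with single libraries left out (where 4.55% to 6.84% of all genes tested were lower) and 1 with KO 1 alone against WT (3.71%), a fit that rests on 1 KO-labelled library assumed to vary like WT. Members higher numbered 1, with 4 under DESeq2 (2.33% of all genes tested), 2 under the replicate block (1.21%) and between 0 and 5 with single libraries left out (0.87% to 4.33%); the 5 were without KO 1 (1.66%). Same-numbered libraries did not deviate together (r = -0.162, -0.0674 and -0.0368 over genes), and no library correlated best with its own number, so the replicate block pairs a number only. The members' median log2 fold change lay between -0.02 and 0.22 with single libraries left out. Of 539 member values under the alternatives, 43 changed sign, in 23 members; the other 19 members kept their sign in every alternative run. Cnn1, with the largest log2 fold change of the members (2.10), was among those that changed sign. With KO 1 alone the values were 0.0059 for Fli1, 0.047 for Vegfc, 0.062 for Flt4, -0.32 for Tek, -0.20 for Tie1, -0.27 for Vwf, -0.18 for Pdgfrb, -0.12 for Cspg4, -0.66 for Anpep, -0.22 for Tagln, -0.73 for Myh11, -0.37 for Cnn1 and -0.50 for Des. Angpt1 was at 0.048 with limma-voom and 0.023 under the replicate block, and Angpt2 at -0.00074 with DESeq2 size factors and -0.00049 with DESeq2. With single libraries left out, values ran from -0.56 to 0.11 for Angpt1, -0.079 to 0.090 for Angpt2, -0.38 to 0.44 for Anpep, -0.18 to 0.030 for Cdh5, -0.36 to 0.46 for Des, -0.054 to 0.32 for Eng, -0.20 to 0.21 for Flt4, -0.0036 to 0.22 for Mfsd2a, -0.034 to 0.50 for Notum, -0.20 to 0.17 for Pdgfrb, -0.13 to 0.090 for Rgs5, -0.043 to 0.21 for Robo4, -0.039 to 0.24 for Sox17, -0.058 to 0.32 for Sox18, -0.13 to 0.26 for Tek and -0.045 to 0.37 for Tie1. The cause of these shifts was not tested. Depth limits Esm1 and Cnn1, with as few as 3 and 5 counts in a library.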
